A study of Mus musculus with 8 samples.

Results

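The genes described here attach chromosome ends to the nuclear envelope during meiotic prophase. They are Terb1, Majin, Sun1, Sun2 and Spdya, the gene for Speedy A (also written Speedya), and they are 5 of the 21959 genes in the table. They were picked by name for this function, through Ensembl identifiers matched to mouse symbols, and all 5 were found. RNA was sequenced from oocytes of postnatal day 1 ovaries of wild-type mice and of Rbpms2 knockout mice, with 4 libraries of each genotype. Rbpms2 encodes an RNA-binding protein, and the study asks what its loss does to early oocytes. Every library came from one tube of 5 to 10 cells picked as putative primordial oocytes, with mRNA amplified over 18 cycles. The labels give neither strain, nor the deleted part of Rbpms2, nor how many animals the tubes came from, so p-values reflect variation among tubes only, part of which may be technical.

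Meiotic chromosomes pair while their telomeres are tethered to the inner face of the nuclear envelope. TERB1 links the telomere protein TRF1 to TERB2, and MAJIN anchors this complex in the membrane. SUN1 and SUN2 cross the inner nuclear membrane and meet KASH-domain proteins of the outer membrane, such as KASH5, which connect to dynein motors in the cytoplasm. Speedy A binds and activates the kinase CDK2 at telomeres. In the mouse ovary germ cells enter meiosis before birth and arrest late in prophase as primordial follicles form.

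The tubes carried germ cell RNA in both genotypes. Ddx4, a helicase used as a germ cell marker, stood at 54.0 to 84.2 FPKM in wild type and 108 to 332 FPKM in knockout. Of 11 germ cell markers, all tested, 4 rose and 7 fell, and 2 of those that fell (Gdf9 and Zp3) reached the filter on low values through wild type alone. Over all tested genes 17.7% rose and 25.6% fell. With each library's trend against transcript GC content removed, the rise of Dazl no longer passed (limma adjusted p = 0.572). FPKM, the deposited unit, is the number of fragments scaled by gene length and by library size. Recovered reads ranged from 8310774 to 11926922 in the wild-type libraries and from 9554090 to 14526326 in the knockout ones. Rbpms2 itself fell by 1.98 on the log2 scale (limma adjusted p = 7.26e-05), from 168.5 ± 32.3 to 42.5 ± 11.5 FPKM (SD, n = 4 each). Reads of the gene remained in every knockout library, at 31.0 to 58.3 FPKM. RNA of other ovarian cells was present unevenly. The summed level of 10 stromal markers ran 12.5, 58.5, 140.1 and 72.1 FPKM over wild-type replicates 1 to 4, and over the knockout replicates 13.0, 555.2, 512.0 and 18.5 FPKM. That of 10 granulosa cell markers was 1.68 to 40.7 FPKM in wild type and 6.47 to 241 FPKM in knockout. For 10 immune markers the sums were 7.05 to 24.1 and 17.4 to 449 FPKM, with C1qa at 0 in every wild-type library. For 8 endothelial markers they were 1.68 to 2.84 and 4.02 to 160 FPKM, with Esam at 0 in every wild-type library. Of these 4 lists, 10 stromal, 6 granulosa cell, 6 immune and 1 endothelial markers were tested. Among them 2 immune markers (Mrc1 and Lyz2) passed, both upward in knockout. Both were under 1 FPKM in every wild-type library and entered the test through knockout, so upward was the only direction open to them. Erythroid markers, which 7 genes represent, summed to 11.9 to 5368 FPKM in wild type and 99.6 to 3212 FPKM in knockout. The sums of 7 surface epithelium markers were 4.85 to 16.5 FPKM in wild type and 1.61 to 176 FPKM in knockout. Of the 4 tested, 1 was called higher and 1 lower, and each passed the filter on low values through 1 genotype. Wild-type replicate 3 and knockout replicates 2 and 3 were the libraries richest in stromal and granulosa markers of their genotypes. They are called rich in somatic markers below, although knockout replicate 1, outside this set, had the highest endothelial sum (160 FPKM).

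The sequences upstream of 3 members are shown first, because these genes stand for the patterns found. Spdya had the largest fold change of the members, Terb1 a smaller one that depended on the processing, and Sun2 none that passed the test. RefSeq promoter entries (GRCm38.p6) matched 4 of the 5 members, and Majin did not match. Each run holds the 250 bases before the start site, read 5′ to 3′ on the gene's strand, at chr17:71551811-71552060 (plus strand) for Spdya, chr8:104509888-104510137 (minus strand) for Terb1 and chr15:79742537-79742786 (minus strand) for Sun2. Start sites are those of RefSeq, and the 5′ end of Terb1 in GENCODE M21 (104509910) lies inside its window. Capitals mark matches to CCAAT on either strand, where the reverse strand reads ATTGG.
Spdya: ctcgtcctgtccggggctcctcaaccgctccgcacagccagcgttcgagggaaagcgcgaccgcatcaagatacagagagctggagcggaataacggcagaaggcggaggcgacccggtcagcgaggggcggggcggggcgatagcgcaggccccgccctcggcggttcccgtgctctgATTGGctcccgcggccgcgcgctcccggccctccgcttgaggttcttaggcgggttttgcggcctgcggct
Terb1: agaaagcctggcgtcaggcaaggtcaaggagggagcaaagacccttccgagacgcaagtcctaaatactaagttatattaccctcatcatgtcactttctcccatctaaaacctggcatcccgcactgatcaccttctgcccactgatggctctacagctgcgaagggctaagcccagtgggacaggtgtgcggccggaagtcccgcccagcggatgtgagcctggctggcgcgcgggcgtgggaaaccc
Sun2: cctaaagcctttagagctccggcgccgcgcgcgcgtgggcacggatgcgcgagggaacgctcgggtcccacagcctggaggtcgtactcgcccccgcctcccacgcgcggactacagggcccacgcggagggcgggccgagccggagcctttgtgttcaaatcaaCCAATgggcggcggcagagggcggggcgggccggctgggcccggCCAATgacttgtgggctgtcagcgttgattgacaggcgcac

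The motifs searched on both strands of these windows were the CCAAT box, the TATA motif TATAAA, the E-box CACGTG, the E2F motif TTCCCGC and the cyclic AMP response motif TGACGTCA. CCAAT matched once in Spdya, 71 to 67 bases before the start site, and at 2 places in Sun2, beginning 85 and 41 bases before it. RefSeq lists 2 start sites for Sun1, with 2 CCAAT matches at the upstream one and a CCAAT and a TATAAA match at the other, and Terb1 had none. Over 32536 promoter windows of the same length, 33.8% held CCAAT. None of the other motifs matched in the Spdya, Terb1 or Sun2 windows, and they were found in 12.3% (TATAAA), 6.04% (CACGTG), 3.84% (TTCCCGC) and 1.56% (TGACGTCA) of all windows. The windows of Spdya and Sun2 were 70.4% and 70.8% G or C, and that of Terb1 was 58.0%, against a median of 52.4% over all windows.

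Proteins of the RBPMS family are known to bind RNA at paired CAC triplets. Pairs of CAC with 1 to 10 bases between them were therefore counted in the 3′ UTR of the longest coding transcript of each member in GENCODE M21, with overlapping pairs counted separately. Majin had 3 in 659 bases, Sun2 had 4 in 1374 bases, Sun1 had 1 in 1309 bases, and Terb1 (424 bases) and Spdya (859 bases) had 0. The median over 10963 tested genes was 2 per 3′ UTR and 2.04 per kilobase, and 75.3% of genes had at least 1. The Majin matches, the densest of the 5 members at 4.55 per kilobase, are shown with the 2 triplets in capitals. They begin at bases 13, 184 and 452 after the stop codon.
Majin first match: CACagCAC
Majin second match: CACtccCAC
Majin last match: CACgccctgCAC

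Of the 5 members, 3 rose in knockout oocytes, and the 2 SUN genes did not pass the test. Spdya and Majin were at low levels in wild type and reached 15.5 to 74.1 FPKM in knockout, and Terb1 rose 2.14-fold. In these 3 genes every knockout library lay above every wild-type library. All 5 members passed the filter on low values (1 FPKM or more in at least 4 libraries), and Majin and Spdya each had 2 wild-type libraries above that level. These 2 genes met the filter only with knockout libraries, so a fall below 1 FPKM in all knockout libraries would have left them untested. With no filter Majin and Spdya were also called higher (limma adjusted p = 0.0177 and 0.000304). Of all 11235 genes tested, 17.7% were higher, 25.6% were lower and 43.4% were called in either direction (limma, adjusted p under 0.05). Knockout libraries lay wholly above wild-type libraries in 15.9% of all tested genes. In bulk tubes fewer cells of a type and less RNA per cell cannot be told apart.

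**Figure D1:**
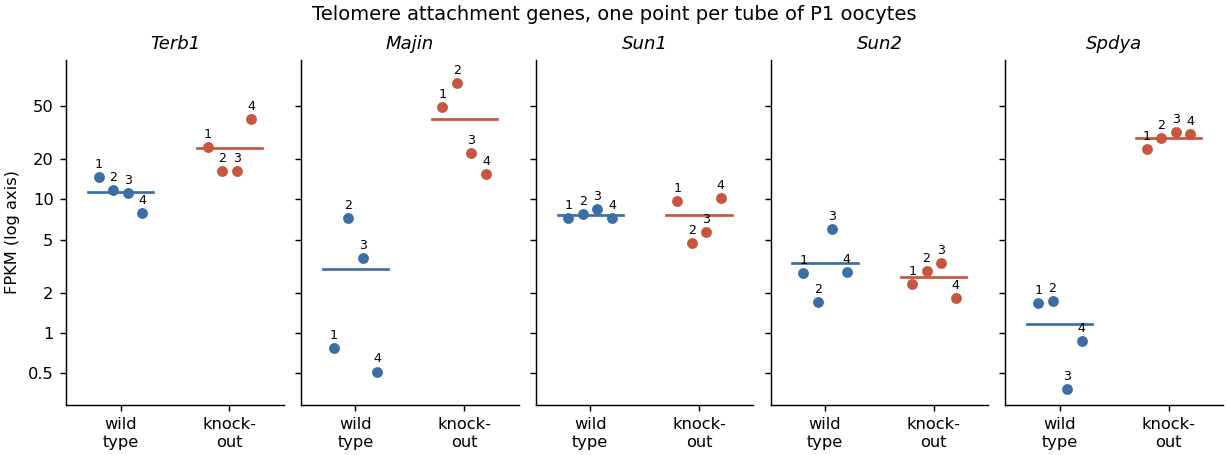
FPKM (log axis) of the 5 members, one point per library with its replicate number, wild type in blue and knockout in red, lines at the means. All knockout points lie above all wild-type points in Terb1, Majin and Spdya, and the genotypes overlap in Sun1 and Sun2.

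The complex that binds the telomere was represented by Terb1 and Majin. Terb1 (ENSMUSG00000052616) lies on the minus strand of chromosome 8, from 104446719 to 104509910 in GRCm38. Its levels in order of replicate, 1 to 4, were 14.8, 11.7, 11.1 and 7.98 FPKM for wild type and 24.7, 16.3, 16.3 and 40.1 FPKM for knockout. Knockout replicates 4 and 1 were the highest, and replicates 2 and 3 lay close above the highest wild-type library. The means were 11.4 ± 2.78 and 24.3 ± 11.2 FPKM (SD, n = 4 each), a 2.14-fold difference. On the log2(FPKM + 1) scale, which understates the change of low genes, Terb1 rose by 0.96 (SE 0.31) with limma adjusted p = 0.0271. An exact permutation test, two-sided, gave p = 0.0286, which is the lowest value possible for groups of 4.

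The Terb1 call did not hold under several settings. When each library's trend against transcript GC content was removed (the GC correction), the difference was 0.24 (limma adjusted p = 0.511). Leaving out any one of 5 libraries also ended it, namely replicates 2, 3 and 4 of wild type and replicates 1 and 4 of knockout (limma adjusted p = 0.0518 to 0.0823, log2 differences 0.70 to 0.99). The transcript of Terb1 is 39.5% G or C. When tested genes were ordered by GC and cut into 10 equal bins, the bin that holds Terb1, the lowest (28.9% to 41.6%), had a median log2 fold change of 0.52. The highest bin (57.9% to 72.8%), which holds Sun2, had a median of -0.89. Without the 3 libraries rich in somatic markers the Terb1 difference was 1.42 (limma adjusted p = 0.00996). That fit kept wild-type replicates 1, 2 and 4, and knockout replicates 1 and 4, where knockout Terb1 was highest.

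Majin (ENSMUSG00000024786), the membrane anchor, lies on the plus strand of chromosome 19 from 6184388 to 6224225. Wild-type replicates 1 to 4 stood at 0.765, 7.24, 3.61 and 0.513 FPKM, whereas their knockout counterparts stood at 49.1, 74.1, 22.3 and 15.5 FPKM. Tubes differed widely within both genotypes, and the lowest knockout library still stood above the highest wild-type library. Few reads lay behind the lowest wild-type values, 15 in replicate 1 and 7 in replicate 4, against 244 to 1769 in the knockout libraries. Mean levels were 3.03 ± 3.14 and 40.3 ± 26.8 FPKM (SD, n = 4 each), 13.3-fold apart. Without wild-type replicate 2 the wild-type mean was 1.63 FPKM and the fold 24.7. Majin rose by 3.45 on the log2(FPKM + 1) scale (SE 0.60, limma adjusted p = 0.00107), and by 3.52 after the GC correction (limma adjusted p = 0.00119). Its transcript is 50.2% G or C, and genes of 49.7% to 51.6% had a median log2 fold change of -0.23.

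The balance between the 2 subunits was compared within each library. Terb1 was above Majin in every wild-type library, at FPKM ratios of 19.3, 1.62, 3.07 and 15.6 in replicates 1 to 4. In knockout it was below Majin in replicates 1, 2 and 3, at ratios of 0.503, 0.220 and 0.731, and above it in replicate 4 (2.58). The genotypes overlapped, since knockout replicate 4 exceeded wild-type replicate 2. The mean log2 ratio, with 1 FPKM added to each gene, was 1.94 ± 1.14 in wild type and -0.55 ± 1.43 in knockout (SD, n = 4 each). The difference of -2.49 did not pass the exact two-sided permutation test (p = 0.0571, adjusted p = 0.114 over the 2 ratios compared). After the GC correction the difference was -3.28 (exact permutation p = 0.0286, adjusted p = 0.0571).

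**Figure D2:**
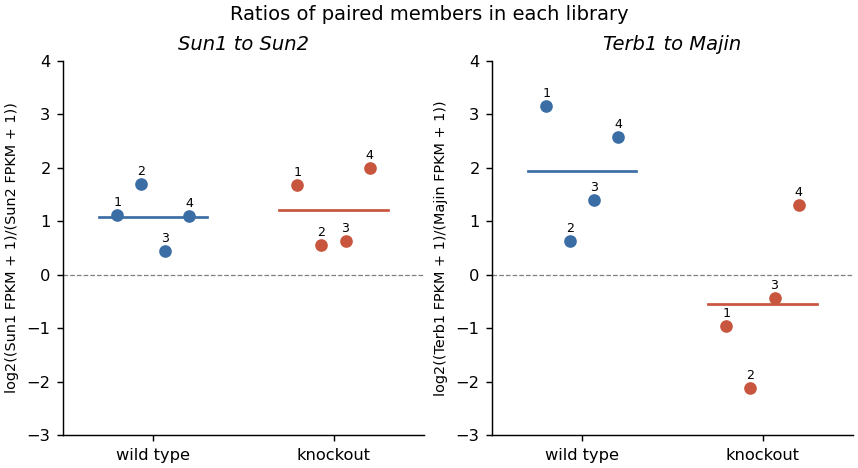
Log2 ratio of Sun1 to Sun2 (left) and of Terb1 to Majin (right) in each library, with 1 FPKM added to every value, numbers for replicates and lines at the means. The Sun ratios of the genotypes overlap throughout, and the Terb1 to Majin ratio is above 0 in all 4 wild-type libraries and below 0 in knockout replicates 1, 2 and 3.

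Spdya, the CDK2 activator, had the largest fold change of the members. The gene (ENSMUSG00000052525) lies on the plus strand of chromosome 17 from 71552061 to 71589533. In wild type, replicates 1 to 4 had 1.68, 1.74, 0.377 and 0.875 FPKM, which were 44, 38, 7 and 16 reads. In knockout they had 24.0, 28.7, 32.0 and 30.9 FPKM, from 616 to 917 reads. All 4 knockout libraries were close to each other and far above wild type. Means were 1.17 ± 0.658 and 28.9 ± 3.58 FPKM (SD, n = 4 each), 24.8-fold apart. The log2(FPKM + 1) difference was 3.83 (SE 0.28, limma adjusted p = 4.56e-06). It was 3.13 after the GC correction (limma adjusted p = 1.95e-05), and this transcript too lies in the bin lowest in GC (39.9%). Called rises of 3 or more on this scale were found in 1.21% of the tested genes. Counted from the largest rise downward, Spdya and Majin ranked 64 and 91 among all 11235 differences. The annotation places 402 bases of the Spdya exons (18.3%) over exons of Trmt61b on the opposite strand and 250 bases over the pseudogene Mettl4-ps1. Antisense annotations also share 302 bases of the Sun1 exons (3.98%) and 147 of the Sun2 exons (2.71%). Reads from shared bases cannot be assigned without strand, and the sources do not state whether counting was stranded.

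The inner membrane proteins of the bridge to the cytoskeleton did not pass the test. Sun1 (ENSMUSG00000036817) lies on the plus strand of chromosome 5 from 139200637 to 139249840. Wild-type replicates 1 to 4 gave 7.22, 7.75, 8.47 and 7.29 FPKM, and the knockout series was 9.75, 4.73, 5.74 and 10.3 FPKM. The wild-type tubes were nearly equal, while knockout replicates 1 and 4 lay above all of them and replicates 2 and 3 below all of them. Means were 7.68 ± 0.574 and 7.63 ± 2.80 FPKM (SD, n = 4 each). The log2(FPKM + 1) difference was -0.07 (95% interval -0.67 to 0.54, limma adjusted p = 0.861), which as a factor on FPKM + 1 is 0.627 to 1.45.

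Sun2 (ENSMUSG00000042524) lies on the minus strand of chromosome 15 from 79724070 to 79742536 and was the lowest of the members in knockout. Its wild-type levels were 2.80, 1.71, 5.99 and 2.86 FPKM in replicates 1 to 4, next to knockout levels of 2.33, 2.92, 3.35 and 1.83 FPKM. Wild-type replicate 3 was the highest of all 8 libraries. The means were 3.34 ± 1.84 and 2.61 ± 0.662 FPKM (SD, n = 4 each). The log2(FPKM + 1) difference was -0.20 (95% interval -0.93 to 0.54, limma adjusted p = 0.657), or a factor of 0.525 to 1.45 on FPKM + 1. Intervals lay wholly between -1 and 1, as those of both SUN genes did, in 23.7% of tested genes.

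Sun2 was highest in the libraries with the most stromal RNA of each genotype, wild-type replicate 3 (5.99 FPKM) and knockout replicates 3 and 2 (3.35 and 2.92 FPKM), and Sun1 was lowest in knockout replicates 2 and 3. The part of other cells in these levels was not tested. Without those 3 libraries the log2 differences were 0.39 for Sun1 (limma adjusted p = 0.241) and -0.15 for Sun2 (limma adjusted p = 0.744). The ratio of Sun1 to Sun2 was 2.58, 4.54, 1.41 and 2.55 over wild-type replicates 1 to 4, and 4.18, 1.62, 1.71 and 5.61 over the knockout ones. Sun1 was thus the higher of the paralogs in all 8 libraries. The mean log2 ratio, with 1 FPKM added, was 1.09 ± 0.513 in wild type and 1.22 ± 0.733 in knockout (SD, n = 4 each), a difference of 0.13 (exact two-sided permutation p = 0.800, adjusted p = 0.800 over 2 ratios).

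The order of the members by FPKM, a level per gene length, was not the same in the 2 genotypes. In wild type it ran from Terb1 (11.4) through Sun1 (7.68), Sun2 (3.34) and Majin (3.03) to Spdya (1.17). Of these neighbours only Sun1 and Sun2 had ranges that did not overlap. In knockout the order was Majin (40.3), Spdya (28.9), Terb1 (24.3), Sun1 (7.63) and Sun2 (2.61). The ranges of the 3 highest overlapped each other, all 4 Terb1 values were above all Sun1 values, and all Sun1 values were above all Sun2 values.

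**Figure D3:**
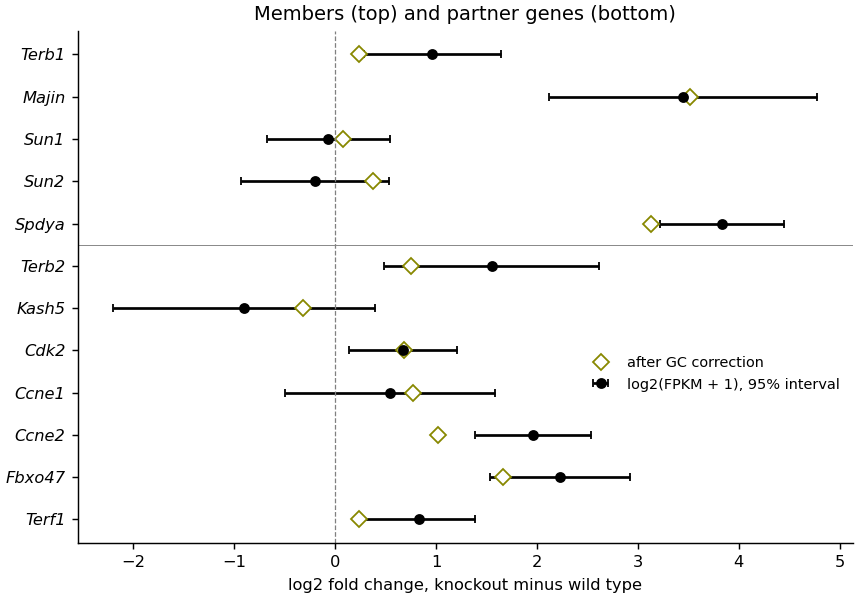
Log2 fold change (knockout minus wild type, log2(FPKM + 1) scale) with its 95% interval for the 5 members and 7 partner genes, and the value after the GC correction as open diamonds. Majin, Spdya, Fbxo47 and Ccne2 remain at 1.02 or more after the correction, and Terb1 moves from 0.96 to 0.24.

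Most of the 7 genes listed as partners rose. They encode proteins that bind a member or CDK2, or that are needed for the attachment. All were tested, and 5 were called higher and 0 lower, against 17.7% and 25.6% of all tested genes. The list was chosen with earlier results of these data known, and whether it differs from other genes was not tested. Their median log2 fold change was 0.83, against -0.12 over all tested genes. After the GC correction 3 were higher (42.9%), against 14.9% of all tested genes. The count was 2 when replicate 3 of wild type or replicate 1 of knockout was left out, and 3 when replicate 4 of wild type was. Without the 3 libraries rich in somatic markers 3 were higher and 1 lower.

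Terb2, the subunit that joins TERB1 to MAJIN, had wild-type levels of 8.16, 6.71, 1.46 and 5.34 FPKM and knockout levels of 29.9, 8.62, 10.1 and 23.6 FPKM, each in the order of replicates 1 to 4. All knockout libraries lay above all wild-type libraries, closely so in replicate 2. It rose by 1.55 on the log2 scale (limma adjusted p = 0.0239), but by 0.75 after the GC correction (limma adjusted p = 0.226), and the call also ended when replicate 3 of wild type, or replicate 1 or 4 of knockout, was left out. Terf1, which encodes the telomere protein TRF1 that TERB1 binds, rose by 0.83 (limma adjusted p = 0.0216), from 13.9 ± 5.00 to 24.5 ± 2.02 FPKM (SD, n = 4 each). Its difference after the GC correction was 0.23 (limma adjusted p = 0.50). It was not called when replicate 3 or 4 of wild type or replicate 1 of knockout was left out, nor without the 3 libraries rich in somatic markers (limma adjusted p = 0.119). Fbxo47, an F-box gene needed for meiotic telomere attachment, rose 5.71-fold, from 4.51 ± 1.39 to 25.7 ± 10.4 FPKM (SD, n = 4 each). Its log2 difference was 2.23 (limma adjusted p = 0.000286) and 1.67 after the GC correction.

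Among the partners of Speedy A and CDK2, Ccne2, which encodes cyclin E2, rose 3.96-fold, from 12.3 ± 4.50 to 48.7 ± 6.03 FPKM (SD, n = 4 each, limma adjusted p = 0.000201). Its log2 difference went from 1.96 to 1.02 with the GC correction. Ccne1, for cyclin E1, had 20.1 FPKM in wild-type replicate 2 and 3.70 to 5.21 FPKM in the other wild-type libraries, against 7.08 to 17.9 FPKM in knockout (limma adjusted p = 0.376, and 0.0433 without wild-type replicate 2). Cdk2 rose 1.64-fold, from 10.8 ± 2.88 to 17.7 ± 3.75 FPKM (SD, n = 4 each), and its genotypes overlapped. This call lay near the threshold (limma adjusted p = 0.0450) and ended without any one of 6 libraries, wild-type replicates 1, 3 and 4 and knockout replicates 1, 2 and 3. It was also not called without the 3 libraries rich in somatic markers (limma adjusted p = 0.162) or with the replicate block, which adds the tube number to the fit (limma adjusted p = 0.0521).

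Kash5 (listed as Ccdc155), the outer membrane partner of SUN1 in meiosis, did not pass. In the order of replicates 1 to 4, wild type gave 14.9, 16.5, 2.96 and 23.8 FPKM and knockout 10.0, 9.27, 1.78 and 6.10 FPKM. Replicate 3 was the lowest library in each genotype, and these 2 libraries had the highest granulosa cell marker sums of their genotypes (40.7 and 241 FPKM). Knockout replicate 2, with the highest stromal sum (555.2 FPKM), had more Kash5 than knockout replicate 4 (9.27 against 6.10 FPKM). No relation to the markers was tested. The log2 difference was -0.90 (limma adjusted p = 0.234), and -1.47 without wild-type replicate 3 (limma adjusted p = 0.0298). With the 3 libraries rich in somatic markers left out it was -1.11 (limma adjusted p = 0.0225).

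**Figure D4:**
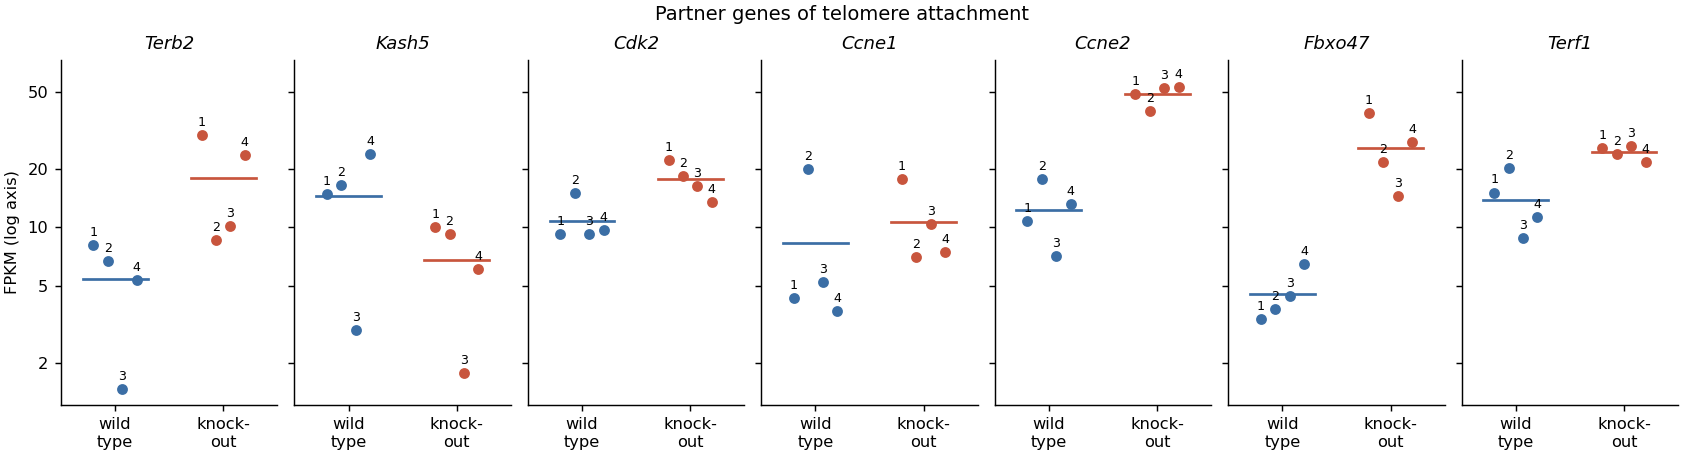
FPKM (log axis) of the 7 partner genes, one point per library with its replicate number, wild type in blue and knockout in red, lines at the means. Ccne2 and Fbxo47 are separated by genotype, as are Terb2 and Terf1 by narrow gaps. Kash5 is lowest in replicate 3 of each genotype, at 2.96 and 1.78 FPKM.

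Among 10 relatives of the SUN and KASH proteins, 5 passed the filter on low values. Syne1, Syne2, Syne3 and Clmn were called lower, and the other was Kash5. Syne1, Syne3 and Clmn were under 1 FPKM in every knockout library and passed the filter through wild type alone, so they could only have been called lower and the count is not read against all genes. With a filter at 5 FPKM 1 gene was called lower. Sun3, Spag4, Sun5, Syne4 and Lrmp stayed at or below 2.22 FPKM in every library and were not tested. Syne2, which encodes the large nesprin-2 that ties the nucleus to the cytoskeleton, was at 9.13, 19.4, 18.4 and 19.7 FPKM over wild-type replicates 1 to 4, and at 0.944, 7.27, 6.95 and 1.26 FPKM over the knockout ones. It fell by 2.04 on the log2 scale (limma adjusted p = 0.00747), and its highest knockout values were in the 2 libraries rich in stromal RNA. Without the 3 libraries rich in somatic markers the difference was -2.95. Syne3 fell from 2.09 ± 0.915 to 0.121 ± 0.222 FPKM (SD, n = 4 each, limma adjusted p = 0.00446). Clmn, for the membrane protein calmin, fell 31.5-fold, from 5.98 ± 0.795 to 0.190 ± 0.104 FPKM (SD, n = 4 each, limma adjusted p = 3.72e-05).

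Lamins and other proteins of the inner nuclear membrane were covered by 20 genes, all tested. Of these 9 fell (45.0%) and 1 rose (5.0%), against 25.6% and 17.7% of all tested genes. After the GC correction 6 were lower (30%), against 23.6% of all tested genes, and 1 was higher. Whether the list differs from other genes was not tested. Their median log2 fold change was -0.25. The number higher was 2 without wild-type replicate 3, 3 without knockout replicate 2 and 3 without the 3 libraries rich in somatic markers. Lmnb1, for lamin B1, fell from 21.3 ± 8.04 to 4.74 ± 1.57 FPKM (SD, n = 4 each, limma adjusted p = 0.000613). Tmem201, an inner membrane protein, fell by 2.00 on the log2 scale (limma adjusted p = 0.000149), and by 1.39 after the GC correction. Banf1, a chromatin protein that binds LEM-domain proteins, fell from 297.1 ± 33.6 to 161.1 ± 25.2 FPKM (SD, n = 4 per genotype). Its log2 difference went from -0.89 to -0.38 (limma adjusted p = 0.0683) with the GC correction. Lbr, the lamin B receptor, was the gene that rose, 2.51-fold (limma adjusted p = 0.00209).

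The shelterin and CST complexes and telomerase were covered by 18 genes, all tested, whose shares before the GC correction lay near those of all genes. Of these 2 rose (11.1%, against 17.7%), 5 fell (27.8%, against 25.6%) and 11 were not called (61.1%, against 56.6%). Their median log2 fold change was -0.28. After the GC correction 0 were higher and 3 lower (16.7%), against 14.9% and 23.6% of all tested genes. The number lower was 3 without wild-type replicate 1, 2 or 4, and the number higher was 1 when replicate 2, 3 or 4 of wild type or replicate 1 of knockout was left out. Tert, the catalytic subunit of telomerase, fell by 2.84 on the log2 scale, from 7.89, 11.4, 7.73 and 13.5 FPKM over wild-type replicates 1 to 4 to 0.134, 0.0120, 1.27 and 1.06 FPKM over the knockout ones (limma adjusted p = 0.000124). Rtel1, a helicase that unwinds telomere loops, fell by 1.17 (limma adjusted p = 0.0113, but 0.0941 without the 3 libraries rich in somatic markers). Ten1, a CST subunit, fell by 1.54 (limma adjusted p = 0.0173, and 0.0655 after the GC correction), and by 2.50 without the 3 libraries rich in somatic markers. Besides Terf1, the gene that rose was Dkc1, for the telomerase component dyskerin, by 0.80 (limma adjusted p = 0.0186, and 0.263 after the GC correction). Its genotypes overlapped, and it was not called without wild-type replicate 2 or knockout replicate 4.

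Dynein and dynactin, the motor that pulls attached telomeres, had genes called in both directions, as all tested genes did. Of 26 genes, all tested, 7 rose (26.9%) and 8 fell (30.8%), against 17.7% and 25.6% of all tested genes (5 fell without the 3 libraries rich in somatic markers). After the GC correction 5 rose (19.2%) and 6 fell (23.1%), against 14.9% and 23.6% of all tested genes. Whether the list differs from other genes was not tested. Their median log2 fold change was 0.04. Dynlrb2, a dynein light chain with high expression in testis, was listed at 0, 1.09, 0 and 0.216 FPKM over wild-type replicates 1 to 4, and at 12.5, 8.66, 14.3 and 3.20 FPKM over the knockout ones. It rose by 2.92 on the log2 scale (limma adjusted p = 0.000406), with at most 6 reads in any wild-type library. It passed the filter on low values through knockout, since 1 wild-type library reached 1 FPKM. Its paralog Dynlrb1 fell from 471.5 ± 47.4 to 165.5 ± 51.3 FPKM (SD, n = 4 each, limma adjusted p = 0.000396). Dynll1, another light chain, fell 2.67-fold, and Dctn1, the large dynactin subunit, fell 3.26-fold with nearly equal values within each genotype (18.7 ± 0.615 and 5.74 ± 0.291 FPKM, SD, n = 4 each). The log2 difference of Dctn1 went from -1.55 to -0.93 with the GC correction. The capping protein genes Capza1 and Capza2, whose products sit at the end of the dynactin filament and of actin filaments, rose 2.65-fold and 2.73-fold. Their log2 differences went from 1.34 to 0.85 and from 1.43 to 0.69 with the GC correction. Over all 5 lists, with each gene counted once, 14 of 74 tested genes were higher (18.9%) and 26 lower (35.1%). That compares with 17.7% and 25.6% of all tested genes, and 1 of the 14 and 3 of the 26 passed the filter on low values through 1 genotype. After the GC correction the shares were 12.2% and 25.7%, against 14.9% and 23.6%.

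**Figure D5:**
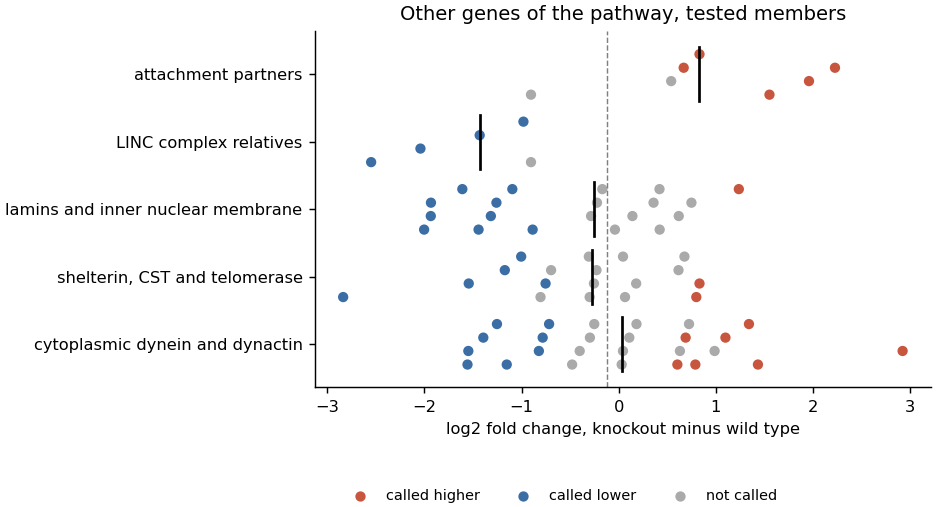
Log2 fold change (knockout minus wild type) of the tested genes in the 5 pathway lists, colored by call, with a black line at each list's median and a dashed line at the median of all tested genes (-0.12). The partner genes lie mostly to the right of it (median 0.83), and 3 of the 4 blue points among the SUN and KASH relatives are genes that passed the filter on low values through wild type alone.

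For each member the 3 tested genes with the nearest pattern were found as the smallest root-mean-square difference between log2(FPKM + 1) profiles over the 8 libraries, each centred on its own mean. Because they were chosen for likeness in these libraries, changes and calls like those of the member follow from the choice. Spdya was nearest to Fbxo6 (0.38), Hormad1 (0.38) and Stk33 (0.39). Fbxo6 and Stk33 passed the filter on low values through knockout, so upward was the only direction open to them. Hormad1, an axis protein of meiotic chromosomes, went from 58.1 to 884.1 FPKM on average. Majin was nearest to Spaca1 (0.60), Gml2 (0.61) and Zfp711 (0.76), which rose by 3.37, 3.08 and 3.08 on the log2 scale. Terb1 was nearest to Ppp2r1b, Arcn1 and Vps41 (0.15 each), of which Arcn1 alone was called (limma adjusted p = 0.00710). Sun1 was nearest to Zfp281, Lrpprc and Nav3 (0.14 each) and Sun2 to Prkag1 (0.12), Rabl6 (0.16) and Eif2ak4 (0.18), and none of these 6 genes was called. Among the members themselves the nearest profiles were those of Sun1 and Sun2 (0.55) and of Terb1 and Sun1 (0.58), and Majin and Spdya were 1.04 apart.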

How the data were processed

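RNA from 8 tubes of picked oocytes was sequenced, 4 per genotype, grouped by the labels' titles. The authors deposited 1 FPKM value for every gene in every library. Per the submitters' processing notes the tools were HISAT2, HTSeq and cutadapt and the builds GRCm38 and mm10, and their versions are not given in the sources. Of 21959 genes, 21851 had a symbol and 21902 an exon length in GENCODE M21. Whole reads could be recovered from FPKM and exon length (97.4% to 97.6% of nonzero values within 0.02 reads). These reads gave depths and an alternative fit. They cover counting error only, since amplified reads are not independent molecules. Within each genotype all libraries differed by more than counting noise, so no deposited library was a rerun of another.

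Genes with 1 FPKM or more in at least 4 libraries (11235) entered a limma fit (version 3.58.1, R 4.3.3) of log2(FPKM + 1) on genotype alone, with eBayes moderation that follows the mean level. They were called at a Benjamini-Hochberg adjusted p under 0.05 over all of them. A fold is one mean FPKM divided by the other. Intervals are limma's at 95%. Ratios of members were compared by exact two-sided permutation over 70 splits with scipy 1.17.1. The members and lists were chosen with earlier results of these data known. Genes named were the members, Rbpms2, all partner genes, up to 3 called genes per direction with the smallest p in each other list (higher mean at least 1 FPKM), and the 3 nearest profiles per member. Mrc1, Lyz2, C1qa, Esam and the untested KASH and SUN genes were named after their values were seen. Marker genes were fixed by cell type. The steps were tested on simulated data. The fit without the 3 libraries rich in somatic markers was chosen after seeing the data.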

Additional observations from a re-analysis of the deposited data

Results flagged for a closer look

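In 6 cases a library stood apart from the other 3 of its genotype, by Dixon's 95% criterion on the gap to the nearest library over the whole range. Chance alone flags about 1 in 20 groups, and 94 groups of 4 libraries were looked at. None of them was a value of Terb1, Majin, Sun1, Sun2 or Spdya, or of the ratios between them. Wild-type replicate 2 was the highest wild-type library for Cdk2 (15.1 FPKM), the kinase that Speedy A activates, and for the cyclin gene Ccne1 (20.1 FPKM). Knockout replicate 3 was the highest knockout library for Clmn (0.345 FPKM) and Syne3 (0.454 FPKM). Syne2 was lowest in wild-type replicate 1 (9.13 FPKM), and Banf1 was highest in wild-type replicate 3 (347.4 FPKM).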

How the results depend on the processing

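The calls of Majin and Spdya held under all 21 alternatives tried for each, with log2 differences of 2.37 to 4.28 and 2.46 to 4.75, the lower ends with a pseudocount of 5 and the upper with limma-voom on recovered reads. Sun1 and Sun2 were called under none (21 and 20 alternatives, log2 differences -0.22 to 0.39 and -0.39 to 0.38), and their signs changed between settings. With a filter at 5 FPKM Sun2 was not tested. Terb1 was not called without a filter (log2 difference 0.96, limma adjusted p = 0.0877), with the GC correction (0.24) or with the GC correction and the replicate block (0.24), and leaving out single libraries gave 0.70 to 1.12. The cause was not tested. The difference in the Terb1 to Majin ratio passed unadjusted only with the GC correction (-3.28), and without single libraries it was -3.11 to -1.96. Pathway genes called higher numbered 9 with the GC correction and 9 with the GC correction and the replicate block, against 14. Median-of-ratios scaling moved the median log2 fold change of all genes from -0.12 to about 0, and Terb1, Majin and Spdya stood at 1.10, 3.56 and 3.92 there. The labels number tubes 1 to 4 in both genotypes without saying that a number pairs them. Deviations of same-numbered tubes correlated at 0.19, 0.02, 0.36 and -0.05, so the numbers were not taken as pairs. Wild-type replicates 1, 2 and 4 did not correlate best with their own number. With the replicate block 2113 genes were higher and 2921 lower, against 1991 and 2880, Terb1 had limma adjusted p = 0.0386, and Kash5 was called lower (-0.90, limma adjusted p = 0.0359).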

Other observations

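Germ cell markers did not share one order among the knockout tubes. Ddx4 was highest in replicates 4 and 1 (332.0 and 232.5 FPKM, against 114.4 and 108.1 FPKM in replicates 2 and 3), as Terb1, Terb2 and Sun1 were. The other markers that rose, Dazl, Mael and Sycp3, were also highest in replicate 4 but did not share the rest of this order. Dazl and Mael were higher in replicate 2 (544.1 and 710.6 FPKM) than in replicate 1 (504.0 and 661.2 FPKM). Sycp3 was higher in replicate 3 (1098 FPKM) than in replicate 1 (903.0 FPKM). Nobox, a transcription factor of primordial oocytes, was highest in replicate 2 (96.2 FPKM) and lowest in replicate 1 (5.95 FPKM). Dppa3, a maternal factor, was also highest in replicate 2 (405.4 FPKM) and lowest in replicate 1 (25.3 FPKM). Spdya was lowest in replicate 1 (24.0 FPKM) and highest in replicate 3 (32.0 FPKM). These genes were picked from the 11 germ cell markers after their values were seen, and no relation was tested.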
